A study of Drosophila melanogaster with 4 samples.

Results

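H3K36me1 regions along the euchromatic part of chromosome arm 2L of Drosophila melanogaster are described here. They are the regions of significant enrichment of the whole-series list that lie on 2L and start at or below 21011544, which leaves out the last 2 Mb of the arm sequence of 23011544 bp, at its centromere end. The rule gave 1285 of the 8190 enriched regions of that list, and the same limit gave 938 of 5645 regions in replicate 1 and 940 of 5725 in replicate 2. The members nearest to the limit were a region at 21009742 to 21017860 (8.12 kb, score 0.471) and one at 20992226 to 21008261 (16.0 kb, score 0.564). The nearest regions left out were at 21024416 to 21030171 (5.76 kb, score 0.704) and at 21030666 to 21042206 (11.5 kb, score 1.27). Coordinates are those of FlyBase release 5.

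The study used ChIP-seq, the sequencing of DNA that an antibody pulls down with chromatin, to map H3K36me1 in larval nuclei (instar 3) of the wild-type strain Oregon-R-modENCODE, untreated as far as the labels say. It held 4 samples, 2 ChIP samples and 2 input samples, numbered as replicates 1 and 2 in each group. Whether the replicates were collected from larvae separately is not stated in the labels, and their spread may therefore be technical. Each ChIP sample has a region list of its own, and a further list belongs to the whole series. Sequencing depth is unknown because no read counts were given with the regions, and the only value of a region besides its position is the authors' score, whose scale is not stated.

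Methylation of lysine 36 of histone H3 is laid down over transcribed genes. In flies Set2, which travels with elongating RNA polymerase, makes the trimethylated state, and Ash1 and NSD (Mes-4) make lower states. The monomethylated state has been described in fly cells mostly within long introns of active genes and at regulatory regions inside them. Chromatin of whole larvae holds many cell types, so a mark that is strong in few cells and one that is weak in all cells cannot be told apart. No gene is named for a region, since gene positions of release 5 were not used here.

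H3K36me1 lay on 2L in many narrow regions and a smaller number of broad ones. Replicate 1 covered 4.71 Mb (22.4%) and replicate 2 covered 4.52 Mb (21.5%), a mean of 22.0% ± 0.62 (SD, n = 2). The whole-series list covered 6.06 Mb (28.9%). The median width was 2218 bp in replicate 1, 2225.5 bp in replicate 2 and 2028 bp in the whole-series list. Regions of at most 2 kb made up 41.5% and 41.2% of the regions of the replicates and held 13.3% and 13.8% of the region length. Regions of at least 10 kb numbered 115 in replicate 1, which is 12.3% against 11.6% over all sequences of that list, and 110 in replicate 2, which is 11.7% against 10.5%. They held 49.7% and 46.4% of the region length of 2L. In the whole-series list they were 146 of the 1285 members (11.4%, against 9.71% over all sequences) and held 52.4% of the length.

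Some neighbouring regions of 2L lay close together. In replicate 1, 241 of 937 distances between neighbouring regions were at most 1 kb, and in replicate 2 this held for 254 of 939. The median distance was 3275 bp and 3176 bp. The upper quartile reached 10513 bp and 11851.5 bp, and the distances above it held 87.8% and 88.0% of the uncovered length between regions. Distances on the other arms and over all sequences are not given here, so these values are not read as a trait of 2L.

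The mark was dense near the telomere and sparse at a few places in the interior. The most covered of 21 windows of 1 Mb was the first one, from 0 to 1 Mb, with 42.2% in replicate 1 and 39.0% in replicate 2. The window from 8 to 9 Mb followed with 34.2% ± 1.27 (SD, n = 2), and the window from 3 to 4 Mb with 28.8% ± 1.20. The least covered windows were 15 to 16 Mb, with 4.66% and 4.92% in the replicates, 17 to 18 Mb, with 6.16% ± 0.23, and 10 to 11 Mb, with 9.12% ± 0.82. The window from 16 to 17 Mb, which lies between the 2 sparsest, was covered to 21.4% ± 2.14, near the median of 21.5% over windows. Of the other 18 windows, 16 had between 15% and 30%. In a window, replicate 1 and replicate 2 were 1.57 percentage points apart in the median and at most 3.28 points apart, against an SD of 8.39 points over windows. Replicate 1 was the higher one in 15 windows and replicate 2 in 6.

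**Figure D1:**
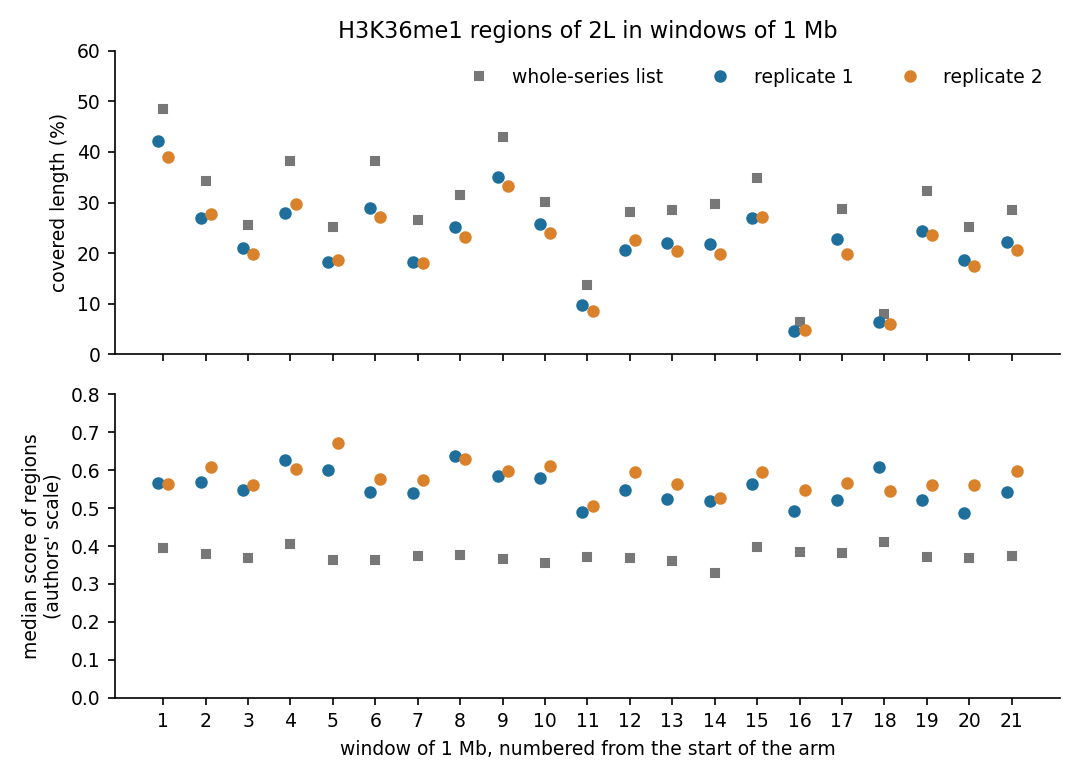
Covered length in percent (upper panel) and median score of the regions on the authors' scale (lower panel) in 21 windows of 1 Mb of 2L, numbered from the start of the arm, with 1 point for each replicate and for the whole-series list. Coverage ran from 4.79% to 40.6% (means of the replicates), while the median score stayed between 0.499 and 0.637.

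Windows differed in the number of regions and in the number of broad ones, and less in the score of the regions they held. The mean number of regions per window ran from 10.5 to 65, and that of regions of at least 10 kb from 1 to 14. The median score of a window, averaged over the replicates, ran from 0.499 in the window from 10 to 11 Mb to 0.637 in that from 4 to 5 Mb, and the sparse window from 17 to 18 Mb had 0.577 ± 0.04 (SD, n = 2). Over the 21 windows, Spearman's rho of coverage was 0.89 with the number of broad regions, 0.52 with the number of all regions and 0.54 with the median score. All these values come from the same regions, and neighbouring windows are not independent, so the rho values are descriptions.

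The first 10 Mb of the arm carried more of the mark than the part beyond, a division chosen after the values were seen. Coverage was 27.0% in replicate 1 and 26.0% in replicate 2 over the first 10 Mb, and 18.3% and 17.4% beyond it. There were 49.5 ± 0.28 regions per Mb in the first part and 40.3 ± 0.13 beyond (SD, n = 2). Broad regions numbered 67 and 66 in the first part and 48 and 44 beyond. Per Mb, this was 6.7 and 6.6 against 4.36 and 4.00. Both replicates differed in the same direction for each of these values. The division was placed with the values in view, so this is a description and no support for a difference. The median score was 0.580 and 0.589 in the first part and 0.520 and 0.563 beyond.

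The widest member was the domain at 12455314 to 12546383, 91.1 kb wide and scored 1.79 in the whole-series list. Replicate 1 held it as a single region of 90.6 kb with a score of 1.89. Replicate 2 broke it into 2 regions, the wider of 65.2 kb, the better of which scored 1.76. The break was small, since replicate 2 left only 0.309 kb of the domain without a region. The nearest member beyond the right edge lay 38.0 kb away, whereas the one before the left edge was 0.405 kb away.

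The member next in width, at 7893090 to 7977600 (84.5 kb, score 1.29), was uneven inside. The widest break of replicate 1 lay within that of replicate 2, and the smaller breaks lay at different places. Each replicate held 4 regions there and one of them made up most of the domain, with 62.1 kb and a score of 1.46 in replicate 1 and 60.7 kb and 1.43 in replicate 2. The regions to the left of it scored between 0.504 and 0.754 in replicate 1 and between 0.788 and 0.879 in replicate 2. Of the 1.90 kb that replicate 1 left uncovered, 1.51 kb were also uncovered in replicate 2, which left out 4.64 kb. Most of this domain lay in the most covered 100 kb window of the arm, 7900001 to 8000000, where H3K36me1 covered 89.0% in replicate 1 and 87.4% in replicate 2.

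**Figure D2:**
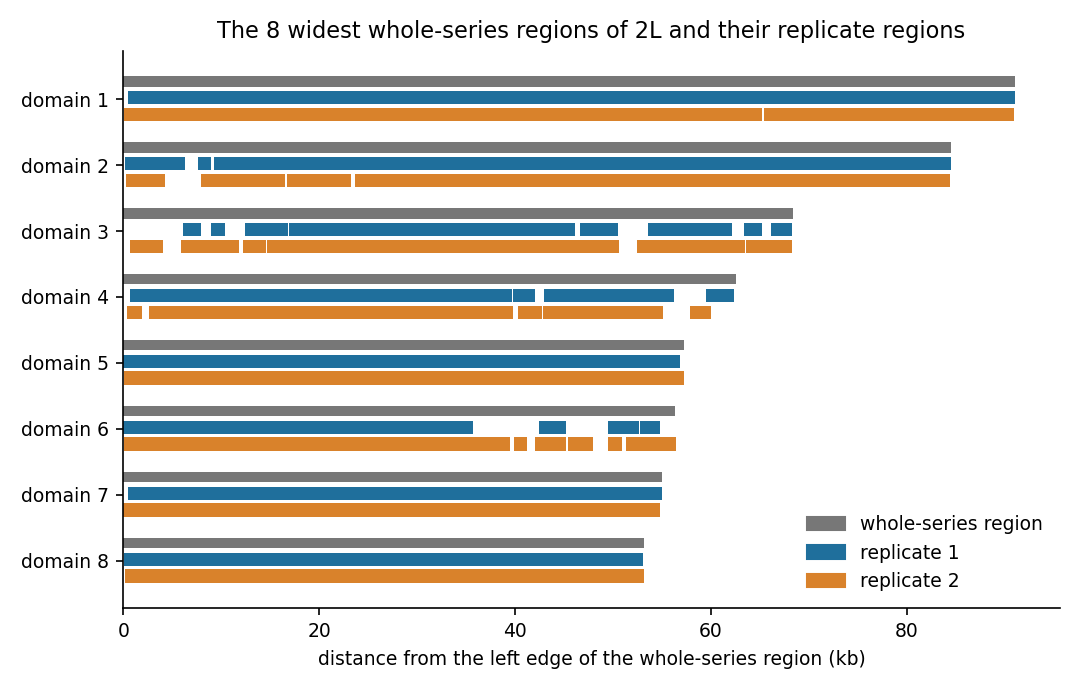
The 8 widest members, from the widest (domain 1, 91.1 kb) to the narrowest of them (domain 8, 53.2 kb), with the whole-series region in grey and the regions of each replicate below it, on an axis of distance from the left edge in kb. Domains 1, 5, 7 and 8 were covered to over 99% by both replicates, and breaks below 0.6 kb in them are hard to see. Domains 3 and 6 were broken into 4 to 8 regions with gaps.

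The other broad members fell into solid and broken domains. The domain at 1626854 to 1680057 (53.2 kb) was a single region in both replicates, of 53.0 kb each, which covered 99.56% and 99.57% of it. The domain at 11013700 to 11068707 (55.01 kb) was 1 region of 54.6 kb in replicate 1 with a score of 1.25. Replicate 2 held a region of 53.4 kb there with a score of 1.18, and a second one with a score of 0.297. The domain at 14365408 to 14422666 (57.3 kb) was held as 2 and 3 regions that covered 99.3% and 99.6% of it.

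In the broken domains named next, both replicates held a strong core, and the rest was divided into regions differently. This did not hold for every broad member. At 16472447 to 16485038 the best-scoring regions of the replicates did not overlap. The member at 8808713 to 8877084 (68.4 kb, score 0.819) was covered to 78.3% in 8 regions of replicate 1 and to 92.5% in 6 regions of replicate 2. Its core was a region of 29.2 kb with a score of 0.989 in replicate 1 and of 35.9 kb with a score of 1.10 in replicate 2, and all other regions there scored at most 0.670 and 0.802. The member at 18314049 to 18370417 (56.4 kb, score 0.984) was covered to 77.5% and 93.6%, with a core of 35.7 kb in replicate 1 and 39.4 kb in replicate 2. The core scored 1.19 and 1.17, and the remaining regions at most 0.658 and 0.638. The member at 14482765 to 14545373 (62.6 kb, score 1.09) was covered to 91.7% in 4 regions and 88.8% in 6 regions, with a best score of 1.32 and 1.37. Replicate 1 left 5.22 kb of it uncovered and replicate 2 left 7.00 kb, and 2.36 kb were uncovered in both at the same place.

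All 146 members of at least 10 kb met a region of both replicates, where 99.9% of such regions did over all sequences. Of these members, 52 were a single region in each replicate, 55 were split in both, 8 in replicate 1 alone and 31 in replicate 2 alone. How often broad regions were split over all sequences is not given here, so these counts are not read as a trait of 2L. The median share covered was 96.0% in replicate 1 and 94.8% in replicate 2. The lowest was 16.3% in replicate 1, at 16472447 to 16485038 (12.6 kb). That member, named after its values were seen, had the lowest score of the broad members, 0.407. Replicate 1 held 1 region of 2.06 kb there and replicate 2 held 3, the widest of 2.29 kb.

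Some broad members were themselves links of longer chains, which were examined after the values were seen. Joining whole-series regions that lay within 1 kb of each other turned the 1285 members into 881 chains, of which 253 held at least 2 members. The longest chain was not the widest domain but a run of 7 members at 14355665 to 14453819, 98.2 kb long, with scores from 0.287 to 1.15. The replicates covered 89.7% and 91.8% of it. The chain at 3529038 to 3613897 (84.9 kb) held 4 members that all scored between 0.587 and 0.871, and none of them is among the 8 widest or the 8 best-scoring. The replicates covered 84.0% and 87.6% of it. At least 50 kb were reached by 16 chains of the whole-series list, against 9 in each replicate.

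The best-scoring members that met both replicates were domains of very different width. After the domain at 1626854, with a score of 2.05 in replicate 1 and 2.01 in replicate 2, came the member at 9176539 to 9219044 (42.5 kb). It scored 1.90 and 1.87 as a single region in each replicate. The member at 161359 to 199986 (38.6 kb) lies in the densely covered first megabase. It scored 2.01 as 1 region in replicate 1. Replicate 2 held 3 regions there, with 2.04 as the best score and 0.477 as the lowest.

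The member at 9166778 to 9175784 was 9.01 kb wide and scored 1.69 and 1.57. It ended 0.754 kb before the domain at 9176539, so that 2 of the 8 best-scoring members were neighbours. The remaining ones were at 9495367 to 9516567 (21.2 kb, 1.62 and 1.58), at 16264419 to 16286975 (22.6 kb, best scores of 1.62 and 1.599), at 8083444 to 8108877 (25.4 kb, best scores of 1.71 and 1.53), and the widest domain at 12455314. For all 8, the best scores of the replicates differed by at most 0.181, and both replicates covered at least 94.8% of each.

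Score rose with width above 1.6 kb in each list. Below this width it fell with width in the whole-series list and only weakly in the replicates. Spearman's rho between width and score came to 0.87 for 737 regions of replicate 1 and 0.86 for 747 regions of replicate 2 that were wider than 1.6 kb, and 0.84 for 897 members of the whole-series list. For regions of up to 1.6 kb it was -0.16 (201 regions), -0.15 (193 regions) and -0.49 (388 members). The limit was chosen after the values were seen. In the whole-series list the median score was 0.333 for members of 1 to 1.3 kb, 0.275 for those of 1.3 to 1.6 kb, 0.309 for 1.6 to 2 kb and 0.402 for 2 to 2.5 kb. It reached 0.653 for 5 to 10 kb and 0.974 above 10 kb. Regions of each list share a library or libraries and a caller, and rho is across regions, so these values are a description.

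Narrow members that met both replicates had low scores in the whole-series list. The 5 best-scoring ones of at most 2 kb had scores between 0.343 and 0.362 in the whole-series list. The first, at 12647036 to 12648984, was a region of 1.59 kb with a score of 0.407 in replicate 1 and of 1.36 kb with 0.525 in replicate 2. The others were at 2376403 to 2378339, 8043095 to 8045054, 12975223 to 12977094 and 11446200 to 11448126. The one at 12975223 scored 0.562 in each replicate. It stood 130.0 kb from the nearest member before it and 25.3 kb from the next. Over 79 members of at most 2 kb that were 1 region in each list, the highest score was 0.599 in replicate 1 and 0.675 in replicate 2, above the median of each whole list on 2L (0.552 and 0.577). Of 146 members of 2 to 2.5 kb, 92 met both replicates, and the best score among those 92 was 0.748.

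**Figure D3:**
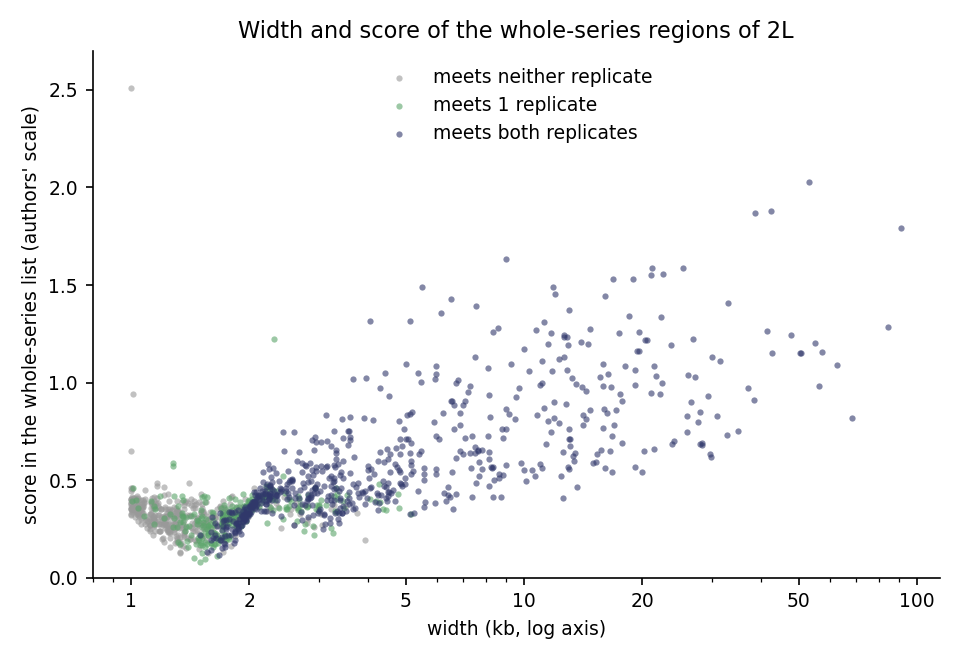
Width in kb (log axis) and score (authors' scale) of the 1285 members, coloured by whether they meet a region of both replicates, of 1 replicate or of neither. Points that meet neither replicate lie at widths up to 3.94 kb, and the lone point at the upper left is the 1.00 kb member with a score of 2.51.

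Of the 1285 members, 624 met a region of both replicates, which is 48.6% (Wilson 95% interval 45.8% to 51.3%), where 46.8% did over all sequences. A further 153 met replicate 1 alone (11.9%, against 12.2%) and 110 met replicate 2 alone (8.56%, against 9.47%). The 398 members that met neither made up 31.0% (28.5% to 33.6%), against 31.5%. Each of these shares is near its value over all sequences. These intervals reflect the number of regions alone, and adjacent regions depend on each other. Members that met both held 4.97 Mb and those that met neither 0.569 Mb.

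Members that met neither replicate were narrow, and many were narrower than anything in the replicate lists. The narrowest region of 2L was 1001 bp in the whole-series list, 1302 bp in replicate 1 and 1301 bp in replicate 2. Of the 398 members that met neither replicate, 196 (49.2%) were under 1301 bp, and 17 of the 213 members under that width met a replicate at all, where 8.35% did over all sequences. Among the 1072 members of at least 1301 bp, 624 met both replicates (58.2%, Wilson 95% interval 55.2% to 61.1%, against 56.7% over all sequences) and 202 met neither (18.8%, against 18.8%). By width, both replicates were met by 12.9% of 626 members of at most 2 kb (11.2% over all sequences), 71.6% of 405 members of 2 to 5 kb (70.3%), 107 of 108 members of 5 to 10 kb (98.2%) and all 146 wider ones (99.9%). These shares on 2L are near those over all sequences.

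The widest members that met neither replicate mostly lay beside other members. They were at 8374218 to 8378156 (3.94 kb, score 0.193), 18372298 to 18376053 (3.76 kb, 0.333), 19357202 to 19360723 (3.52 kb, 0.369), 1387422 to 1390698 (3.28 kb, 0.375) and 6186833 to 6190063 (3.23 kb, 0.353). All but the one at 19357202 had another member within 0.407 kb. That one stood 12.6 kb from the member before it and 26.4 kb from the next.

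The best score of the whole arm belonged to a member that neither replicate held. It lay at 12734819 to 12735819, 1001 bp wide, with a score of 2.51, against 2.03 for the best member that met both replicates. It was singled out after its value was seen. The next best-scoring members without a replicate region were at 8452315 to 8453326 (1012 bp, 0.940) and at 7547817 to 7548817 (1001 bp, 0.648). All 3 were at or near the narrowest width of the list, and the other 395 members that met neither scored lower.

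Between the replicates, 765 of 938 regions of replicate 1 met replicate 2 (81.6%, Wilson 95% interval 78.9% to 83.9%, against 80.1% over all sequences). In the other direction 812 of 940 did (86.4%, 84.0% to 88.4%, against 84.2%). The shared length was 4.09 Mb of a union of 5.14 Mb, or 79.5%. Regions that replicate 1 alone held were widest at 9120827 to 9124861 (4.04 kb, score 0.635), 19064541 to 19068550 (4.01 kb, 0.598) and 16712519 to 16716525 (4.01 kb, 0.454). Those of replicate 2 were at 18785688 to 18789358 (3.67 kb, 0.578), 8809382 to 8812749 (3.37 kb, 0.597) and 18384300 to 18387244 (2.95 kb, 0.409). The last 2 lay inside broad members of 68.4 and 13.7 kb.

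Nearly all regions found in 1 replicate were present in the whole-series list as well. This held for 172 of 173 unmatched regions of replicate 1 and 126 of 128 of replicate 2. Of the length that either replicate covered, 99.4% was inside the whole-series list, and 15.7% of the length of that list lay outside both replicates. These shares over all sequences are not given here, so they are not read as a trait of 2L. How the whole-series list was made is not stated. If it was made from the same samples, the overlap is no independent support for a region.

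Where each list held exactly 1 region, the replicates placed its edges close together. There were 456 such members among the 1285, and those split or unmatched in a replicate are left out. The median distance between the replicates was 134.5 bp for left edges and 142 bp for right edges, and in 335 of 456 (73.5%) both edges were within 500 bp. The 90th percentile was 747 bp on the left and 845 bp on the right.

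The scores of these 456 regions were alike in the replicates and lower in the whole-series list, if the lists share a scale. The median score was 0.548 in replicate 1, 0.553 in replicate 2 and 0.461 in the whole-series list. The median absolute difference between the replicates was 0.072, and the largest difference, at a member picked for it, was 0.325, at 7042227 to 7053443, with 1.49 in replicate 1 and 1.16 in replicate 2. The whole-series score was below both replicate scores in 306 of 456 regions. This depended on the level, with 294 of 396 regions whose replicate mean was under 1 and 12 of 60 regions at 1 or above. Pearson's r between the replicates was 0.94 and Spearman's rho 0.85, across regions of 1 pair of samples.

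**Figure D4:**
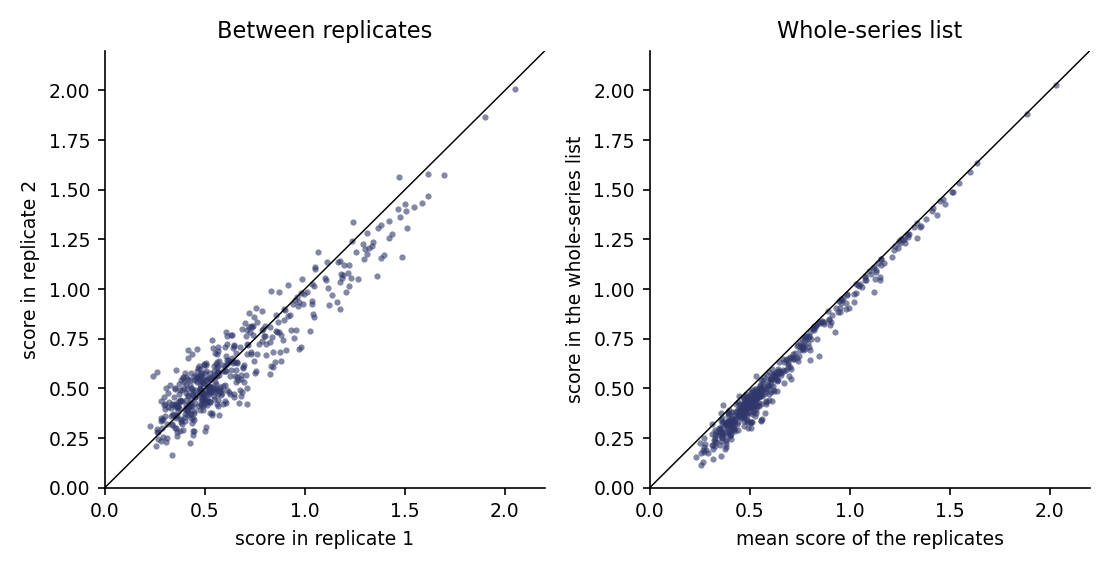
Scores of the 456 members that are 1 region in each list, replicate 2 against replicate 1 (left) and the whole-series list against the mean of the replicates (right), all on the authors' scale, with lines of equality. The whole-series score was lower than the replicate mean by a median of 0.072 where that mean was under 1 and by 0.022 where it was at least 1.

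Long stretches of 2L carried no H3K36me1 region in the replicate lists. In either replicate no region was called over 38 stretches of at least 100 kb, which together made up 7.31 Mb or 34.8% of the arm. Taken singly, the replicates had 39 and 40 such stretches. Of the 38, 22 began beyond 10 Mb and took up 44.3% of that part, against 24.3% of the first 10 Mb.

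The 3 longest lay close to each other, at 15765535 to 16249687 (484 kb), 16911013 to 17373573 (463 kb) and 17499173 to 18134872 (636 kb). The next were at 14689573 to 14976425 (287 kb) and 11516722 to 11798381 (282 kb). The whole-series list placed 2 regions inside the longest stretch, the wider of 1291 bp, and none inside that at 16911013. Over all 38 stretches it placed 40 regions, or 5.47 per Mb, and 15 stretches had none. Only the 398 members that met neither replicate could lie inside a stretch. A density below the 61.2 per Mb of the arm therefore follows in part from the definition of the stretches. The mappability of these stretches was not tested.

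Some stretches, picked after their values were seen, bordered on wide, high-scoring regions. The nearest region of either replicate after the stretch at 15765535 was 7.80 kb wide with a score of 1.42, and the member at 16264419, one of the 8 best-scoring, lay beyond it. The stretch at 14689573 began at the edge of a region of 31.3 kb with a score of 0.955. The stretch of 148 kb at 9240659 followed a region of 18.8 kb with a score of 1.59. The longest stretch, in contrast, was bordered by regions of 1.57 and 3.34 kb with scores of 0.510 and 0.659.

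**Figure D5:**
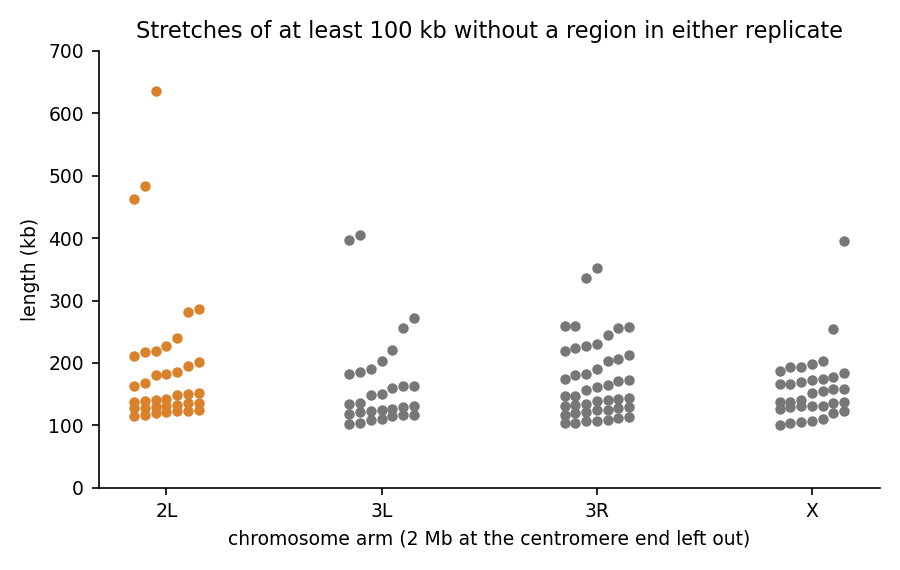
Length in kb of each stretch of at least 100 kb without a region in either replicate on 2L, 3L, 3R and X, each without 2 Mb at its centromere end; every point is 1 stretch and the sideways offset has no meaning. On 2L 3 stretches exceed 400 kb, the longest of 636 kb, against 1 on 3L and none on 3R or X.

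Beside the other arms, each without 2 Mb at its centromere end, 2L had fewer regions per Mb and less coverage in each replicate, and its region scores were near those of 3L and 3R and below those of X. Coverage was 22.0% ± 0.62 on 2L, 22.6% ± 0.62 on 3R, 23.3% ± 1.38 on X and 25.4% ± 0.64 on 3L (SD, n = 2). Within a replicate, 2L was lower than 3R by nearly the same amount each time, with 22.41% against 23.08% in replicate 1 and 21.53% against 22.20% in replicate 2. There were 44.7 ± 0.07 regions per Mb on 2L, 46.2 ± 0.08 on 3R, 49.3 ± 0.17 on X and 52.3 ± 0.41 on 3L, and 2L was the lowest of these 4 in each replicate. The median score was 0.564 ± 0.018 on 2L, 0.558 ± 0.022 on 3L, 0.560 ± 0.017 on 3R and 0.662 ± 0.006 on X. The median width was 2222 ± 5.3 bp on 2L, 2253 ± 41.4 bp on 3L, 2266.5 ± 23.3 bp on 3R and 2375 ± 40.0 bp on X. Regions of at least 10 kb held 48.1% ± 2.36 of the region length on 2L, 48.4% ± 1.71 on 3L, 46.6% ± 1.55 on 3R and 43.5% ± 2.43 on X.

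Stretches of at least 100 kb without a region of either replicate made up 34.8% of 2L, 30.6% of 3R, 27.2% of X and 22.2% of 3L. Windows of 1 Mb covered to under 10% numbered 3 of 21 on 2L, 1 of 22 on 3L, 1 of 25 on 3R and 0 of 20 on X. With 2 replicates, an exact two-sided sign-flip test of the within-replicate differences cannot give a p below 0.5, so no test was run, and none of these differences is shown to be particular to 2L.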

How the data were processed

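ChIP-seq of H3K36me1 was done in nuclei of Drosophila larvae. Per the submitters' processing notes, reads were aligned with Bowtie 0.12.7. How regions were called, with which thresholds, how the input entered and how the whole-series list was made is not stated in the labels or headers. The authors deposited 3 lists of enriched regions, each with 1 score per region. No source gives the scale of this score, and scores are compared across lists on the assumption of a common scale. Lengths and FlyBase release 5 are given per the file headers. Input samples entered no calculation.

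Regions met when they shared at least 1 bp. Positions count from 1. Covered length was cut at the limit of the arm, intervals are Wilson 95% intervals, and SDs are over 2 replicates. Regions named are the 8 widest, the 8 best-scoring and the 5 best-scoring of at most 2 kb that met both replicates, the 5 widest that met neither, the 3 widest unmatched regions of each replicate, the 5 longest stretches, and the 3 most and 3 least covered windows. Stretches, chains and regions named beyond these were chosen after their values were seen. The regions and comparisons were chosen with earlier results of these data known. The interval routines were tested on 50 simulated pairs of lists and gave the known answers. Computations used Python 3.11.15, numpy 2.4.6, pandas 2.3.3, scipy 1.17.1 and matplotlib 3.10.9.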

Additional observations from a re-analysis of the deposited data

How the results depend on the processing

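Of 44 alternative values for 10 results, 22 stayed within the allowed change, which was 1 SD of the replicates, 1.5 times for numbers of regions, and for the share of members that met both replicates the half-width of its Wilson interval. For the shared length, which has no replicates, any change counted as a move. Of the 44 alternatives, 16 left out a replicate, and most of these stay within the allowed change by construction. Of the 28 others, 21 moved. With the best-scoring 50% of the regions of each list, 2L held 441 regions (mean of the replicates), which covered 17.5% of the arm with 60.4% of their length in regions of at least 10 kb. Their median width was then 5057 bp and their median score 0.755. The replicates then shared 80.7% of the union, and 81.1% of the best-scoring whole-series regions met both replicates. For the whole-series list itself, coverage was 28.9%, the median width 2028 bp, the median score 0.372 and the share in broad regions 52.4%. The most and least covered windows then had 48.4% and 6.48%, and the longest stretch without a region was 481 kb. Joining regions within 1 kb gave a median width of 2699 bp, a share of 63.1% in broad regions and a shared length of 80.4%. Over the whole arm, coverage was 21.2% and the shared length 79.2%. An overlap of at least 50% left 44.4% of members meeting both replicates, and a minimum width equal to that of the replicate lists gave 58.2%. Selecting, joining or adding regions changes numbers and lengths by its own construction. For the whole arm and the other values the cause was not tested.

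Leaving out either replicate, the longest stretch was 636 to 651 kb, the number of regions 938 to 940 and the coverage 21.5% to 22.4%. For means of 2 values this stays within 1 SD by construction. Alternatives for windows, the longest stretch and the minimum width, and the number of regions with a replicate left out, were chosen after seeing the data. No paired analysis was possible because the input samples carry no region values to pair with the ChIP samples. Depth, which is unknown, limits all edges and scores.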
